A study of Mus musculus with 24 samples.

Results

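Hearts lacking very long-chain acyl-CoA dehydrogenase (VLCAD) were compared with hearts that have the enzyme. The 8 libraries were chosen by their genotype labels from the 24 of the series. The knockout libraries carry the label Acadl Het / Acadvl KO (n = 4) and their controls Acadl Het / Acadvl wt (n = 4), so both sides share the label Acadl Het and differ in the label of Acadvl. Libraries labelled Acadl Het / Acadvl Het (n = 3), Acadl KO / Acadvl wt (n = 4) and wild type (Acadl wt / Acadvl wt, n = 4) were used for further comparisons. All hearts came from male mice 14 weeks old, fed chow, of a mixed strain that was mostly C57BL/6N with some 129. PolyA RNA was sequenced, 1 library per sample. No label states that the samples are separate mice, so p-values measure the spread between these samples, which may be technical. The labels do not state how the alleles were made or whether knockouts and controls were littermates.

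VLCAD, the product of Acadvl, sits on the inner mitochondrial membrane and takes the opening step in the breakdown of long-chain fatty acids, the main fuel of the heart. Long-chain acyl-CoA dehydrogenase, the product of Acadl, acts on overlapping substrates in the matrix. Loss of VLCAD in people causes an inherited disorder that can affect the heart. The integrated stress response is a pathway in which kinases phosphorylate the translation initiation factor eIF2, general protein synthesis slows, and the transcription factor ATF4 is made and switches on genes for amino acid synthesis, amino acid import and tRNA charging. The series title names this response and uncharged tRNA, so gene lists on these topics are not independent of what the submitters reported.

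Total counts of the 8 libraries ran from 34320838 to 50899683, with 17929 to 18351 genes detected of 24421 listed. RNA isolation batch 1 held 1 Acadvl KO and 2 Acadvl wt libraries, and batch 2 held 3 Acadvl KO and 2 Acadvl wt libraries. The cardiomyocyte markers fixed for the tissue check summed to 84300 to 99992 CPM (counts scaled to library size) in Acadvl KO libraries and 84013 to 97775 CPM in Acadvl wt libraries. Albumin mRNA (Alb), a liver transcript, stood at 36.8 CPM in Acadvl KO replicate 2, against 0.195 to 6.62 CPM in the other 7 libraries. The hepatocyte markers together summed to 81.1 to 172 CPM in Acadvl KO libraries and 63.5 to 85.4 CPM in Acadvl wt libraries, and 0 of 12 passed the test. In the Acadl Het / Acadvl Het libraries Alb ran from 19.8 to 159 CPM. In bulk tissue, fewer cells of a type and less RNA per cell cannot be told apart.

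ATF4 binds a DNA element whose core reads TGATGNAA. This motif was searched for on both strands of the 250 bases before the RefSeq start of each gene (GRCm38.p6), because the genes that changed the most include known ATF4 targets. It was found in 12 of the 30 ATF4 and integrated stress response genes that could be matched (40%) and in 3 of 17 cytosolic aminoacyl-tRNA synthetase genes (17.6%). By comparison 311 of 12242 matched genes among all those tested held it (2.54%), as did 0 of 28 nucleolar ribosome assembly genes and 0 of 18 branched-chain amino acid breakdown genes. The stress response list was drawn up from known targets, so its share is a property of the list and not a result of these hearts. With a general share of 2.54%, finding 0 in lists of 28 or 18 genes says little. The following stretches are written 5′ to 3′ on the strand of the gene, with the motif in capitals, and TTGCATCA is the same element read on the opposite strand.
Fgf21 (chr7:45615602-45615649, minus strand): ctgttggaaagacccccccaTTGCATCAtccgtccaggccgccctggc
Chac1 (chr2:119351029-119351076, plus strand): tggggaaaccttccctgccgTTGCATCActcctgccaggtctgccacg
Asns (chr6:7693210-7693252, minus strand): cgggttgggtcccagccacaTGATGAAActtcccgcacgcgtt
Pycr1 (chr11:120643824-120643871, minus strand): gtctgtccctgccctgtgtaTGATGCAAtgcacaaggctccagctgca
Slc7a11 (chr3:50443652-50443699, minus strand): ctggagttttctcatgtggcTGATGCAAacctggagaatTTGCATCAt
Aars (chr8:111033710-111033757, plus strand): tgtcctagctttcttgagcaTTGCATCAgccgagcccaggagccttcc
These genes were chosen because each is described below, and a match is a stretch of letters, not a measured binding site. The Asns match begins 23 bases before the start.

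Acadvl itself was examined before other genes, as a check of the labels (chr11:70010183-70015428, minus strand, mm10). It was at 499, 734, 495 and 669 CPM in Acadvl KO hearts, against 1550, 1743, 1638 and 1597 CPM in Acadvl wt hearts. The lowest control library stood above every knockout library, and the log2 fold change was -1.44 (SE 0.12, edgeR adjusted p = 9.689e-08). Acadvl Het hearts lay between them at 1039 to 1122 CPM. Knockout hearts thus kept reads over the gene, and since the counts cover the whole gene, reads of deleted and kept exons cannot be told apart. Mir324, a microRNA gene inside Acadvl (chr11:70012043-70012131), collected 1 read over the 4 Acadvl KO libraries and 200 over the 4 Acadvl wt libraries, a ratio of 0.00563 (95% interval 0.000142 to 0.0317, counting error only). Because reads were counted without regard to strand and shared between overlapping genes, these are reads over the Mir324 interval, not a measure of the mature microRNA. Acadl did not pass the test, at 1454 ± 84.5 CPM in Acadvl KO hearts and 1549 ± 99.8 CPM in Acadvl wt hearts (SD, n = 4 each, edgeR adjusted p = 0.261).

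The immediate neighbour Dvl2, a signal transducer of the Wnt pathway (chr11:70000626-70010109), ends just beside Acadvl. Its levels were 14.0, 15.5, 19.0 and 22.8 CPM in Acadvl KO hearts, against 7.63, 9.34, 8.73 and 7.87 CPM in Acadvl wt hearts. The log2 fold change was 1.09 (SE 0.16, edgeR adjusted p = 4.744e-05). Acadvl Het hearts held 12.8 to 13.9 CPM. Other chromosome 11 genes likewise had Acadvl Het means between those of the other genotypes. The interferon-response gene Xaf1 (chr11:72301629-72313733) was at 15.1, 16.2, 25.8 and 28.5 CPM in Acadvl KO hearts, 15.6 to 18.9 CPM in Acadvl Het hearts, and 8.31, 5.15, 7.70 and 5.86 CPM in Acadvl wt hearts. Knockout and Het values of Xaf1 overlapped, and neither overlapped Acadvl wt. The noncoding gene 2610507I01Rik (chr11:59197793-59202431) was nearly lost, at 0.682, 0.401, 1.07 and 0.786 CPM in Acadvl KO hearts, against 24.6, 19.6, 22.0 and 16.4 CPM in Acadvl wt hearts, with 9.25 to 13.1 CPM in Acadvl Het hearts. Slfn8, a member of the schlafen family whose close copies make its counts uncertain (chr11:83002158-83020810), was at 0.512, 0.374, 0.821 and 0.912 CPM in Acadvl KO hearts, 1.60 to 2.35 CPM in Acadvl Het hearts, and 4.25, 2.66, 2.13 and 3.19 CPM in Acadvl wt hearts. Dvl2, 2610507I01Rik and Mir324 lie outside the rule for named genes and were chosen after their values were seen.

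**Figure D1:**
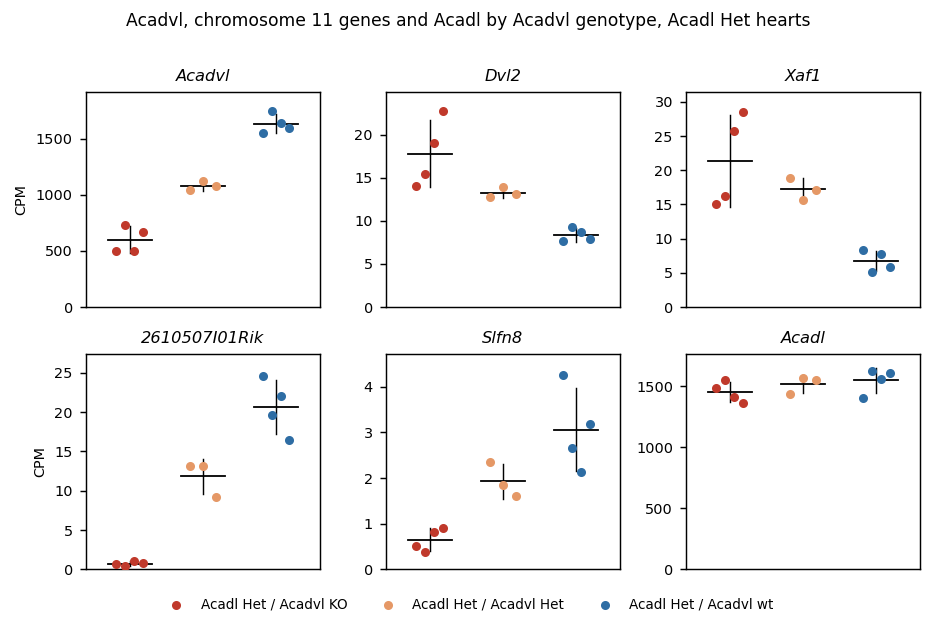
Levels in CPM (vertical axis, from 0) of Acadvl, 4 other chromosome 11 genes and Acadl, 1 point per library, with the mean as a horizontal line and ± 1 SD as a vertical line, for Acadl Het hearts that are Acadvl KO (n = 4), Acadvl Het (n = 3) or Acadvl wt (n = 4). The Acadvl Het libraries lie between the other genotypes for Acadvl, Dvl2 and 2610507I01Rik, and the Acadl values of all 3 genotypes overlap.

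Hearts without VLCAD differed from their controls in a large share of genes. Of 15804 genes tested, 3853 differed between Acadvl KO and Acadvl wt hearts at an adjusted p under 0.05 (24.4%), with 2031 higher (12.9%) and 1822 lower (11.5%) in the knockouts. At least a 2-fold difference was reached by 354 of the higher and 302 of the lower genes. Most called changes were therefore small. Counts of list members given below for this comparison are to be read beside the shares of 12.9% higher and 11.5% lower. All 4 knockout libraries lay above all 4 control libraries in 1854 genes tested (11.7%) and below them in 1853 (11.7%). With only the 8 libraries in the fit, 1033 genes were higher and 951 lower. Within batch 2 the counts were 1417 and 1214, and within batch 1, where a single knockout library faced 2 controls and was assumed to vary like the other libraries, they were 158 and 50.

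Genes of the integrated stress response included some of the steepest rises. Of the 34 genes on the list of ATF4 and stress response targets, 32 rose and 0 fell, with a median log2 change of 1.62, beside a median of 0.02 over all genes tested. Fgf21, a hormone secreted by stressed tissues (chr7:45613890-45615490), was at 1.73, 8.39, 9.74 and 14.8 CPM in Acadvl KO hearts, against 0.0549, 0.0976, 0.134 and 0.133 CPM in Acadvl wt hearts. Knockout replicate 1 was well below the other 3, yet far above every control, and the log2 rise was 6.25 (SE 0.95, edgeR adjusted p = 8.396e-05). Control libraries held 2 to 7 reads of Fgf21 each, so the size of this fold is imprecise. Gdf15, a secreted stress cytokine, was at 10.4, 61.3, 45.0 and 59.3 CPM in Acadvl KO hearts, against 2.17, 1.46, 1.77 and 1.81 CPM in Acadvl wt hearts, and again replicate 1 was the lowest knockout. Trib3, a pseudokinase that feeds back on ATF4, was at 86.9, 174, 137 and 121 CPM in Acadvl KO hearts, against 5.68, 3.88, 5.11 and 5.13 CPM in Acadvl wt hearts. For Gdf15 and Trib3 the log2 rise was 4.61 in each case, with standard errors of 0.62 and 0.56.

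Atf4 mRNA rose, and part of the genes listed for eIF2 and its control did. Atf4 mRNA was at 402, 456, 366 and 294 CPM in Acadvl KO hearts, against 76.0, 71.3, 62.4 and 102 CPM in Acadvl wt hearts. The log2 fold change was 2.20 (SE 0.21, edgeR adjusted p = 6.629e-07). Among the 21 genes listed for eIF2, its kinases and phosphatases and eIF2B, 8 rose and 1 fell, with a median log2 change of 0.15. The 8 included Ppp1r15a, the stress-induced subunit of the phosphatase that resets eIF2, at a log2 of 1.22, and Eif2s2, a subunit of eIF2, at 0.70. The largest change on this list was a log2 of 2.20, the same as that of Atf4, so Atf4 may be counted among the 8. Sesn2 and Chac1 are further genes on the stress response list. Sesn2, an amino acid sensor that restrains the growth kinase mTORC1, was at 27.0, 47.5, 45.4 and 37.0 CPM in Acadvl KO hearts, against 4.31, 3.61, 5.16 and 3.38 CPM in Acadvl wt hearts. Chac1, which degrades glutathione, was at 102, 172, 104 and 95.8 CPM in Acadvl KO hearts, against 14.8, 12.6, 10.1 and 25.4 CPM in Acadvl wt hearts.

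**Figure D2:**
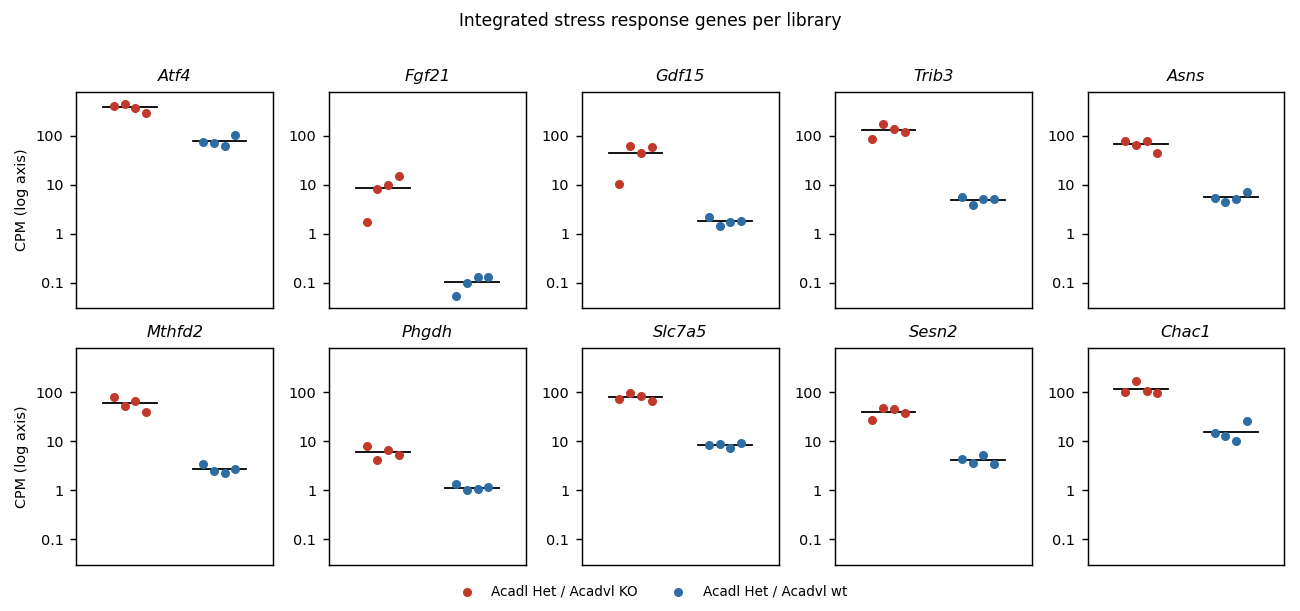
Levels in CPM (log axis) of 10 stress response genes in Acadl Het hearts that are Acadvl KO or Acadvl wt, 1 point per library (n = 4 each) with the group mean as a line. The groups do not overlap for any of the 10, and knockout replicate 1 is the lowest knockout for Fgf21 (1.73 CPM) and Gdf15 (10.4 CPM). The genes were chosen after their values were seen, and 11.7% of all genes tested had every knockout above every control.

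Single enzymes of serine, asparagine and proline synthesis rose steeply, while the wider lists moved in part. Asns, which makes asparagine, was at 77.7, 65.5, 79.3 and 45.4 CPM in Acadvl KO hearts, against 5.49, 4.39, 5.16 and 7.06 CPM in Acadvl wt hearts (log2 rise 3.47, SE 0.40, edgeR adjusted p = 7.534e-06). Of the 18 asparagine, proline and transaminase enzymes 5 rose and 4 fell, beside 12.9% higher and 11.5% lower of all genes tested. Their median log2 change was 0.03. With only the 8 libraries fitted 3 rose and 3 fell, and the falls numbered 1 within batch 2 and 2 without knockout replicate 4. Of 21 serine and one-carbon folate enzymes 9 rose and 2 fell. Phgdh, which commits glucose carbon to serine, was at 8.04, 4.09, 6.52 and 5.32 CPM in Acadvl KO hearts, against 1.32, 1.02, 1.04 and 1.16 CPM in Acadvl wt hearts. Psat1, the next step of that route, rose by a log2 of 2.58, and Mthfd2, a mitochondrial folate enzyme, by 4.24. The proline enzymes Aldh18a1 and Pycr1 rose by 2.58 and 2.83, and Cth, which makes cysteine, by 2.65 on the same scale. No library of either genotype overlapped the other for these genes, which were chosen after their values were seen. The same held, with the knockouts higher, for 11.7% of all genes tested.

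Many genes for amino acid import and tRNA charging rose as well, though neither process was measured. Of 25 plasma membrane amino acid transporters 12 rose and 0 fell. Slc7a5, the exchanger of large neutral amino acids, was at 73.8, 96.3, 83.6 and 67.4 CPM in Acadvl KO hearts, against 8.53, 8.66, 7.26 and 9.36 CPM in Acadvl wt hearts. Its partner chain Slc3a2 rose by a log2 of 1.77, the glycine transporter Slc6a9 by 2.82 and the cystine importer Slc7a11 by 1.40. Of 24 cytosolic aminoacyl-tRNA synthetases, which load tRNAs with amino acids, 15 rose and 0 fell, with a median log2 change of 0.53. Aars, for alanine, was at 252, 250.5, 222 and 189 CPM in Acadvl KO hearts, against 82.6, 90.8, 69.8 and 84.3 CPM in Acadvl wt hearts (log2 rise 1.44, SE 0.12). Cars, for cysteine, averaged 76.1 ± 11.5 CPM in Acadvl KO hearts and 26.3 ± 2.97 CPM in Acadvl wt hearts (SD, n = 4 each). Their mitochondrial counterparts did not share this pattern: 2 of 17 rose and 4 fell, among them Iars2 at a log2 of -0.27 and Hars2 at -0.45. The 2 rises among mitochondrial synthetases were absent within batch 2 and with only the 8 libraries fitted, where 4 still fell.

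Other stress programmes moved less. Of 22 endoplasmic reticulum chaperones and stress genes 3 rose and 3 fell, and of 16 heat shock genes 1 rose and 2 fell, shares close to those of all genes. Those that rose in the endoplasmic reticulum list were the stress sensors Ern1 (log2 1.41) and Atf6 (0.84) and the co-chaperone Dnajb9 (1.05), whereas the oxidoreductase Pdia6 fell by 0.38. Of 19 mitochondrial chaperones and proteases 7 rose and 4 fell. The chaperone Hspa9 (0.46) and the proteases Lonp1 (0.46) and Afg3l2 (0.57) were higher on the log2 scale. NRF2 is a transcription factor that answers oxidants, and of 27 of its targets 9 rose and 3 fell. Srxn1, which repairs oxidised peroxiredoxins, was at 155, 362, 156 and 132 CPM in Acadvl KO hearts, against 40.9, 42.2, 34.1 and 51.6 CPM in Acadvl wt hearts. Osgin1 rose by a log2 of 1.96, thioredoxin reductase Txnrd1 by 0.97 and the ferritin light chain Ftl1 by 0.96. The autophagy receptors Sqstm1 and Optn rose by 0.85 and 1.26. Of 21 autophagy genes 4 rose and 3 fell, beside 12.9% higher and 11.5% lower of all genes tested, with a median log2 change of -0.04. With only the 8 libraries fitted 2 rose and 2 fell.

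Genes for building ribosomes rose in a near-uniform way. Of 33 nucleolar ribosome assembly genes 28 rose and 0 fell, with a median log2 change of 0.49, and in each repeat without 1 of the 8 libraries 25 to 29 rose. With only the 8 libraries fitted 21 rose. Rrp12, which helps export ribosomal subunits, was at 218, 194, 139 and 105 CPM in Acadvl KO hearts, against 62.4, 60.2, 51.9 and 78.2 CPM in Acadvl wt hearts. Gnl3, nucleostemin, rose by a log2 of 1.22 and Nop14, a small-subunit assembly factor, by 0.76. The structural proteins did not follow: 8 of 85 cytosolic ribosomal protein genes rose and 0 fell, with a median log2 of 0.08. Among all genes tested 12.9% rose. Of 15 small nucleolar RNA host genes 5 rose and 0 fell, among them Snhg1 (1.96) and Snhg12 (1.92). Myc, a transcription factor that drives ribosome production, was at 38.3, 75.1, 59.1 and 59.9 CPM in Acadvl KO hearts, against 19.4, 13.2, 14.9 and 30.0 CPM in Acadvl wt hearts. A part of Myc in the rise of the ribosome assembly genes was not tested. The cell cycle inhibitor Cdkn1a rose by a log2 of 1.52.

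**Figure D3:**
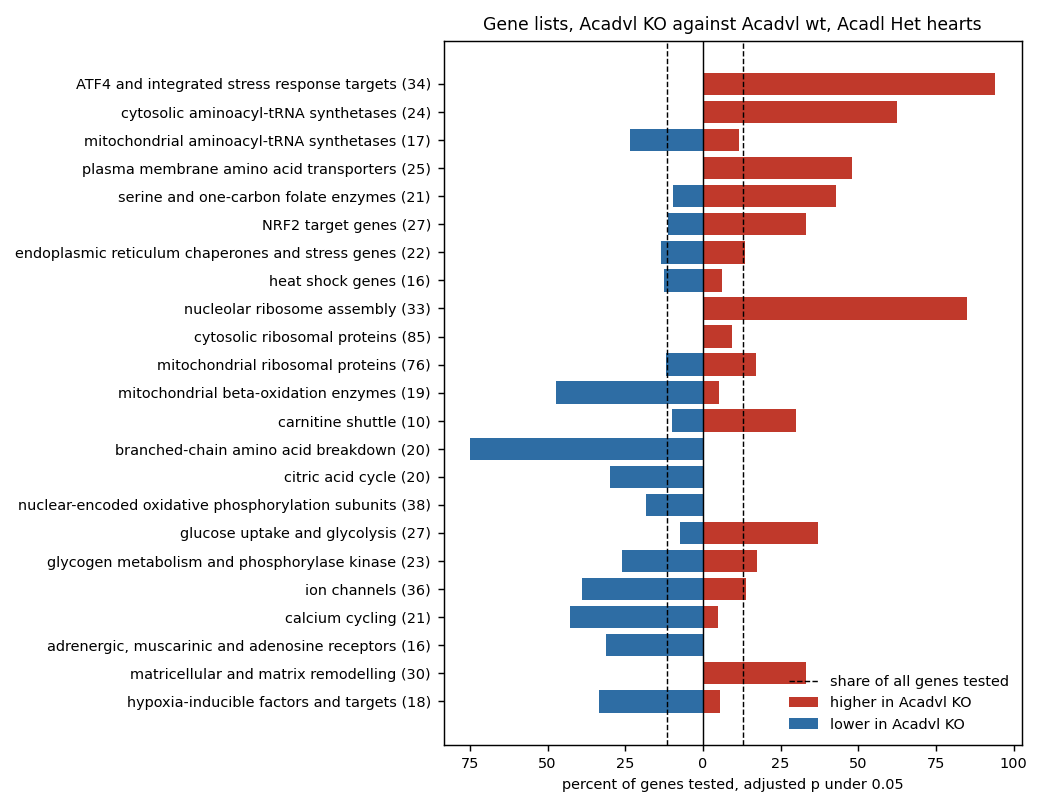
Percent of tested members (number in brackets) with an adjusted p under 0.05, for a selection of the 65 gene lists. Genes higher in Acadvl KO run to the right and lower to the left, with dashed lines at the shares of all genes tested (12.9% higher, 11.5% lower). The cell marker lists and some others are not drawn. The stress response, nucleolar and synthetase lists reach farthest to the right and branched-chain amino acid breakdown farthest to the left.

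Among fuel genes the enzymes of mitochondrial beta-oxidation, the pathway that VLCAD opens, were lower more often than higher. Of the 19 genes on this list, which leaves out Acadvl and Acadl, 9 fell and 1 rose, with a median log2 change of -0.22. The count of falls was 3 within batch 2, and 5 both with only the 8 libraries fitted and without knockout replicate 1. Acadm, the medium-chain dehydrogenase, was at 939.6, 1188, 1094 and 1064 CPM in Acadvl KO hearts, against 1378, 1523, 1525 and 1406 CPM in Acadvl wt hearts, a log2 of -0.46 (SE 0.08, edgeR adjusted p = 0.000349). Acad12, a less studied member of the dehydrogenase family, was at 63.6, 78.4, 65.9 and 65.4 CPM in Acadvl KO hearts, against 105, 116, 117 and 123 CPM in Acadvl wt hearts. Of 10 carnitine shuttle genes 3 rose and 1 fell, beside 12.9% higher and 11.5% lower of all genes tested. The outer enzyme Cpt1b was higher by a log2 of 0.35 and the inner enzyme Cpt2 lower by 0.51, and the Cpt1b call was lost within batch 2 (log2 0.36, edgeR adjusted p = 0.1032).

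Peroxisomal enzymes moved in both directions, as did some lipid handling genes. Ehhadh, a peroxisomal enzyme under PPAR-alpha control, was at 84.7, 95.9, 87.3 and 67.6 CPM in Acadvl KO hearts, against 30.1, 35.2, 46.7 and 39.3 CPM in Acadvl wt hearts. In contrast Ech1, an isomerase of unsaturated fatty acids, fell by a log2 of 0.52. Over the peroxisomal list 4 of 22 rose and 7 fell, beside 12.9% higher and 11.5% lower of all genes tested. The falls were 2 within batch 2, 3 with only the 8 libraries fitted and 3 without knockout replicate 1 or control replicate 2. The mitochondrial thioesterase Acot2, which frees fatty acids from coenzyme A, was at 512, 502, 513 and 426 CPM in Acadvl KO hearts, against 219, 289, 228 and 248 CPM in Acadvl wt hearts. Plin5, a lipid droplet coat protein, was at 577, 619, 495 and 393 CPM in Acadvl KO hearts, against 235, 285, 275 and 229.9 CPM in Acadvl wt hearts. Acsm5, a medium-chain acyl-CoA synthetase, fell by a log2 of 1.47, whereas the fatty acid binding protein Fabp3 rose by 0.33, a call lost within batch 2. Of 11 acyl-CoA thioesterase and uncoupling protein genes 5 rose and 0 fell. Among 21 lipid droplet storage and lipolysis genes 5 rose and 2 fell, and among 17 fatty acid uptake and activation genes 2 rose and 1 fell. In each of these lists 2 rose with only the 8 libraries fitted. Acot genes have close copies, so their counts are uncertain.

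Branched-chain amino acid breakdown had the largest share of falls among the 65 lists. Of 20 genes 15 fell and 0 rose, with a median log2 change of -0.32, and 12 to 16 fell when 1 library was left out. The number was 8 within batch 2 and 9 with only the 8 libraries fitted. Bckdk, the kinase that shuts off the rate-limiting dehydrogenase, was at 81.2, 89.0, 89.1 and 84.0 CPM in Acadvl KO hearts, against 117, 122, 119.6 and 106 CPM in Acadvl wt hearts. Ppm1k, the phosphatase that opposes Bckdk, was at 111, 96.7, 54.9 and 91.6 CPM in Acadvl KO hearts, against 129, 168, 149 and 129.7 CPM in Acadvl wt hearts. The opposing regulators were thus lower together, and the Ppm1k call was lost with only the 8 libraries fitted (log2 -0.70). Ivd, of leucine breakdown, fell by a log2 of 0.44. In the citric acid cycle list 6 of 20 fell and 0 rose, and the falls numbered 3 within batch 2, 3 with only the 8 libraries fitted and 9 without knockout replicate 2. Of 38 nuclear-encoded oxidative phosphorylation genes 7 fell, beside 11.5% of all genes tested. These falls numbered 0 within batch 2, 0 with only the 8 libraries fitted and 2 without knockout replicate 1 or control replicate 2. Sdha (-0.31) and Cox6c (-0.32) were among the 7 that fell, on the log2 scale, and both calls were lost within batch 2 and with only the 8 libraries fitted.

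Glucose handling was rearranged in single enzymes more than as a list. Of 27 glucose uptake and glycolysis genes 10 rose and 2 fell, beside 12.9% higher and 11.5% lower of all genes tested. The rises were 5 within batch 2 and 4 with only the 8 libraries fitted. The isoforms that set the level of the glycolytic activator fructose 2,6-bisphosphate moved apart. Pfkfb2, the heart isoform, was at 179, 288, 195 and 295 CPM in Acadvl KO hearts, against 125, 102, 115 and 113 CPM in Acadvl wt hearts, a call lost within batch 2 (log2 0.97). Pfkfb1, known from liver and muscle, was at 13.9, 6.63, 7.05 and 7.10 CPM in Acadvl KO hearts, against 22.3, 32.2, 38.3 and 21.8 CPM in Acadvl wt hearts. Lactate dehydrogenase Ldha fell by a log2 of 0.57. Pdk1, a kinase that switches off pyruvate dehydrogenase, was at 145, 169, 171 and 163 CPM in Acadvl KO hearts, against 261, 294, 250.3 and 332 CPM in Acadvl wt hearts.

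Glycogen and ketone genes also differed, mostly in single genes. Phkg1 encodes the muscle catalytic subunit of phosphorylase kinase, which starts glycogen breakdown (chr5:129863435-129879083). It was at 14.9, 11.1, 10.2 and 9.63 CPM in Acadvl KO hearts, against 58.6, 65.1, 53.0 and 79.5 CPM in Acadvl wt hearts (log2 -2.45, SE 0.18, edgeR adjusted p = 4.865e-08). Of 23 glycogen metabolism and phosphorylase kinase genes 4 rose and 6 fell, beside 12.9% higher and 11.5% lower of all genes tested. Their median log2 change was 0.03, and with only the 8 libraries fitted 3 rose and 4 fell. Glycogen synthase Gys1 rose by a log2 of 0.69 and Ugp2, which makes its substrate, by 0.89. Stbd1, which tethers glycogen to membranes, was at 17.4, 15.6, 18.5 and 16.8 CPM in Acadvl KO hearts, against 7.16, 8.29, 7.93 and 8.18 CPM in Acadvl wt hearts. Bdh1, which interconverts ketone bodies, was at 367, 377, 309 and 267 CPM in Acadvl KO hearts, against 123, 114, 88.9 and 127 CPM in Acadvl wt hearts. The ketone body list did not rise with it: of 9 genes 1 rose and 3 fell, with a median log2 change of -0.11. The falls numbered 1 within batch 2 and 2 with only the 8 libraries fitted. Of 18 hypoxia-inducible factor genes and targets 6 fell and 1 rose, and the falls numbered 6 in every repeat without 1 library. The oxygen sensor Egln3 fell by a log2 of 1.19 and Mxi1, an antagonist of Myc, by 0.72.

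Genes for the excitation of the heart were lower more often than higher. Beside 11.5% lower and 12.9% higher of all genes tested, 14 of 36 ion channel genes fell and 5 rose. Of 21 calcium cycling genes 9 fell and 1 rose. In repeats without 1 library the falls were 14 to 17 and 7 to 9. Kcnj3, a subunit of the channel that slows the heart under vagal tone, was at 14.6, 19.5, 23.3 and 29.2 CPM in Acadvl KO hearts, against 77.1, 70.8, 83.8 and 59.2 CPM in Acadvl wt hearts. Clcn1, a muscle chloride channel, was at 0.926, 1.31, 1.60 and 3.27 CPM in Acadvl KO hearts, against 9.41, 8.61, 9.58 and 4.77 CPM in Acadvl wt hearts. Going the other way, the potassium channel gene Kcnc1 was at 8.48, 5.64, 5.68 and 5.45 CPM in Acadvl KO hearts, against 0.686, 0.756, 0.653 and 1.20 CPM in Acadvl wt hearts. The potassium channel subunit Kcnv2 fell by a log2 of 1.71.

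Some calcium cycling and receptor genes were also lower. Pln, the brake of the calcium pump of the sarcoplasmic reticulum, was at 3161, 3826, 3608 and 3995 CPM in Acadvl KO hearts, against 4992, 5179, 5064 and 4587 CPM in Acadvl wt hearts (log2 -0.46, SE 0.09, edgeR adjusted p = 0.00136). Casq1, a calcium buffer known from fast skeletal muscle, fell by 1.80, the kinase Camk2a by 1.11 and the channel subunit Cacna2d1 by 0.72. Of 16 adrenergic, muscarinic and adenosine receptors 5 fell and 0 rose, though 3 fell without control replicate 1 and 3 fell within batch 2. The alpha-1 adrenergic receptor Adra1a was at 17.3, 17.4, 14.5 and 21.6 CPM in Acadvl KO hearts, against 42.7, 39.3, 52.5 and 40.8 CPM in Acadvl wt hearts. Adra1b fell by a log2 of 1.30 and the muscarinic receptor Chrm2 by 0.96. Mylk3, the cardiac myosin light chain kinase, fell by 0.59. The water channel Aqp4 gave the lowest adjusted p among the genes named, at 0.292, 0.321, 0.456 and 0.735 CPM in Acadvl KO hearts, against 10.2 to 14.0 CPM in the 4 Acadvl wt hearts (log2 -4.66, SE 0.31, edgeR adjusted p = 7.719e-09).

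**Figure D4:**
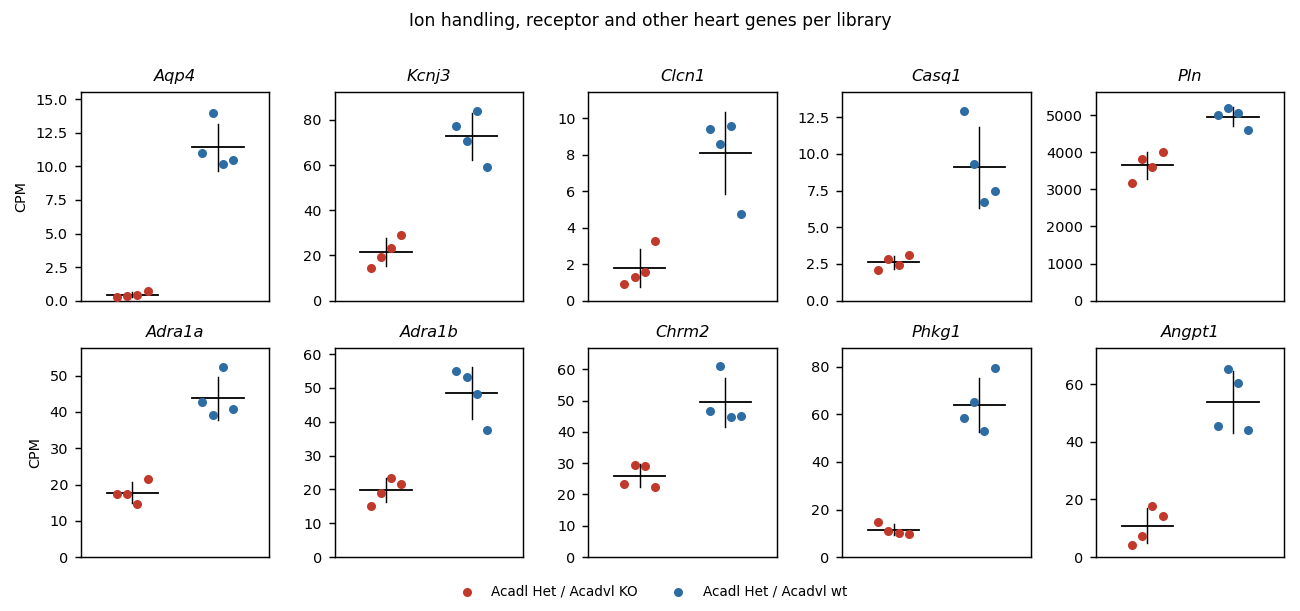
Levels in CPM (vertical axis, from 0) of 10 genes of ion handling, receptors, glycogen control and vessel growth in Acadl Het hearts that are Acadvl KO or Acadvl wt, 1 point per library (n = 4 each), with the mean as a horizontal line and ± 1 SD as a vertical line. In each of the 10 panels all knockout libraries lie below all control libraries. The genes were chosen after their values were seen, and 11.7% of all genes tested had the same pattern.

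Few genes of cardiac strain passed the test against Acadl Het / Acadvl wt hearts, and some of the matrix rose. Of 20 natriuretic peptide and hypertrophy stress genes 4 rose and 2 fell, beside 12.9% and 11.5% of all genes tested. When 1 library was left out 3 to 7 rose, with the 7 without knockout replicate 4. Against wild-type hearts 8 rose and 2 fell, beside 15.1% and 13.2% of all genes tested. Skeletal alpha-actin Acta1, re-expressed in stressed hearts, was at 750.1, 948, 863 and 809.8 CPM in Acadvl KO hearts, against 523, 232, 114 and 196 CPM in Acadvl wt hearts. Brain natriuretic peptide Nppb was at 446, 484, 401 and 367 CPM in Acadvl KO hearts, against 219, 171, 162 and 298 CPM in Acadvl wt hearts (edgeR adjusted p = 0.03295). The Nppb call was lost without knockout replicate 1 or 2 or without control replicate 1, 2 or 3, with edgeR adjusted p-values of 0.0507 to 0.0921, and the calls of Acta1 and Nppb were lost within batch 2. Of 30 matricellular and matrix remodelling genes 10 rose and 0 fell, and 5 rose without control replicate 2, within batch 2 or with only the 8 libraries fitted. Cilp, an interstitial matrix protein, was at 16.1, 21.3, 33.6 and 59.8 CPM in Acadvl KO hearts, against 8.10 to 13.9 CPM in the 4 Acadvl wt hearts. Its log2 rise was 1.68, and 1.11 within batch 2, where the call was lost (edgeR adjusted p = 0.08696). Lgals3, galectin-3, was at 6.84, 5.42, 9.54 and 13.2 CPM in Acadvl KO hearts, against 3.24, 3.49, 4.47 and 3.69 CPM in Acadvl wt hearts. Collagen chains rose in 4 of 21 cases and fell in 1, and the rises numbered 0 without control replicate 2 or 3, within batch 2 and with only the 8 libraries fitted.

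Marker lists of other heart cells were examined beside these groups. The macrophage markers summed to 377 to 639.8 CPM in Acadvl KO libraries and 345 to 399 CPM in Acadvl wt libraries. Of those 14 markers 2 rose, a share near the 12.9% of all genes tested. The number was 5 without knockout replicate 2, 1 without knockout replicate 3 or any 1 of the control replicates, 1 within batch 2 and with only the 8 libraries fitted, and 4 without the libraries above 10 CPM of Alb. Against wild-type hearts it was 7. Among the 2 was Cd68, at 8.92, 6.71, 12.3 and 16.3 CPM in Acadvl KO hearts, against 6.56, 4.78, 5.66 and 5.72 CPM in Acadvl wt hearts. The Cd68 call was lost within batch 2 (log2 0.72). Cd68, Cilp and Lgals3 were each highest in knockout replicate 4, and the part of macrophage number in these values was not tested. Fibroblast markers summed to 2802 to 3259 CPM in Acadvl KO libraries and 2344 to 2893 CPM in Acadvl wt libraries, and 1 of 12 rose and 1 fell. The marker that fell was Wif1, an inhibitor of Wnt signals, by a log2 of 2.55. Of 14 endothelial markers 0 rose and 0 fell, and of 12 smooth muscle markers 0 rose and 2 fell, with Acta2 lower by 1.14 on the log2 scale. Cenpf, of dividing cells, was the 1 of 12 such markers that fell.

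Among genes on no list, the rise with the largest ratio was in Vmn2r3, a vomeronasal receptor gene (chr3:64258961-64287417). It was at 8.72, 3.26, 6.18 and 1.39 CPM in Acadvl KO hearts, against 0, 0.0244, 0.0384 and 0 CPM in Acadvl wt hearts. These are 806 reads in all against 3, a ratio of 302 (95% interval 103 to 1469, counting error only). Fbln7, a matrix fibulin, was at 0.950, 1.71, 1.96 and 3.14 CPM in Acadvl KO hearts, against 0.329, 0.171, 0.307 and 0.171 CPM in Acadvl wt hearts. Tfcp2l1, a transcription factor, rose by a log2 of 2.46. Steep falls included Cacng6 (-3.14), B3galt2 (-2.96), Scd4 (-2.22) and Ctla4 (-2.18). Angpt1, a ligand that steadies blood vessels, was at 4.29, 7.40, 17.6 and 14.4 CPM in Acadvl KO hearts, against 45.6, 65.4, 60.5 and 44.0 CPM in Acadvl wt hearts. The innate immune protein Ptx3 fell by a log2 of 2.58 against Acadvl wt hearts, but not against wild-type hearts (-0.24, edgeR adjusted p = 0.8239).

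The design also allows the second allele to be examined, by setting Acadvl KO against Acadvl Het with Acadl Het on each side. This comparison shares its knockout libraries with the main one, and all 3 Acadvl Het libraries held more than 10 CPM of Alb, whose part in the result was not tested. Acadvl Het replicate 1 stood apart, with 17.3% of its counts in Rn45s, the ribosomal RNA precursor, against at most 0.558% in any other library. Of the 15804 genes 3273 differed (20.7%), with 1702 higher (10.8%) and 1571 lower (9.94%) in Acadvl KO hearts, and with only the libraries compared the counts were 604 and 560. They were 1758 and 1530 with the Rn45s counts left out of the fit, and 1133 and 1004 without Acadvl Het replicate 1. The lower genes numbered 877 without Acadvl Het replicate 2 and 930 without Acadvl KO replicate 1. The stress response list again had 31 of 34 genes higher and 0 lower, and the nucleolar list 28 of 33 higher and 0 lower. Atf4 was higher by a log2 of 2.17, Fgf21 by 5.43, and Aqp4 lower by 4.45. Acadvl mRNA differed by a log2 of -0.85 (edgeR adjusted p = 9.286e-05), whereas Xaf1 did not pass (0.31, edgeR adjusted p = 0.2966). Dvl2 did not pass either (0.42, edgeR adjusted p = 0.07326), but did without knockout replicate 1 (0.54, edgeR adjusted p = 0.0334).

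A direct comparison with the other knockout, Acadl Het / Acadvl KO against Acadl KO / Acadvl wt, asked where loss of VLCAD differs from labelled loss of long-chain acyl-CoA dehydrogenase. Of the 15804 genes tested 700 differed (4.43%). Acadl reads were not lower in libraries labelled Acadl KO, at 1454 ± 84.5 CPM in Acadl Het / Acadvl KO hearts and 1697 to 2100 CPM in Acadl KO / Acadvl wt hearts, so the side labelled Acadl KO rests on its label. Of those called, 420 were higher (2.66% of genes tested) and 280 lower (1.77%) with Acadvl KO. The counts depended on the libraries: 28 and 18 with only the 8 libraries compared, 29 and 25 within batch 2, and 96 and 35 without Acadl KO / Acadvl wt replicate 2. They were 139 and 78 without replicate 1 of that genotype, 157 and 91 without Acadvl KO replicate 3, and 190 and 88 without Acadvl KO replicate 4. Without Acadl KO / Acadvl wt replicate 4 the lower genes numbered 155. Leaving out the libraries above 10 CPM of Alb, 3 of them of these genotypes, gave 47 and 30, and DESeq2 gave 713 and 512.

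Among the genes named for this comparison, the following and Acadvl kept their calls under every alternative tried. Fbln7 was at 0.950 to 3.14 CPM in Acadl Het / Acadvl KO hearts, against 0.0530 to 0.177 CPM in Acadl KO / Acadvl wt hearts (log2 3.76, edgeR adjusted p = 1.33e-05). Vmn2r3 was at 1.39 to 8.72 CPM in Acadl Het / Acadvl KO hearts, against 0.0947 to 1.20 CPM in Acadl KO / Acadvl wt hearts. Tmem100, a membrane protein of endothelium, was at 2.30 to 4.29 CPM in Acadl Het / Acadvl KO hearts, against 10.3 to 29.9 CPM in Acadl KO / Acadvl wt hearts. The thioesterase Acot1 was at 202 to 234 CPM in Acadl Het / Acadvl KO hearts, against 338 to 498 CPM in Acadl KO / Acadvl wt hearts. The chromosome 11 genes Xaf1 (log2 2.29), Slfn8 (-1.74), Dvl2 (1.27) and 2610507I01Rik (-4.23) likewise kept theirs.

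Some serine and one-carbon genes were higher and some beta-oxidation genes lower with Acadvl KO in this comparison, but in neither list did any gene pass within batch 2 or with only the libraries compared. Phgdh was at 4.09 to 8.04 CPM in Acadl Het / Acadvl KO hearts, against 1.11 to 3.73 CPM in Acadl KO / Acadvl wt hearts (log2 1.54, edgeR adjusted p = 0.003048), a call lost with only the libraries compared and within batch 2. Of 21 serine and one-carbon genes 5 were higher, and 1 to 5 when a library was left out. Of 19 beta-oxidation genes 7 were lower, and 1 to 8 when a library was left out. Of 34 stress response genes 6 were higher, 3 to 12 when a library was left out, 1 within batch 2 and 0 with only the libraries compared, and Atf4 (0.44), Fgf21 (0.99), Gdf15 (0.49) and Trib3 (1.05) did not pass on the log2 scale. Their levels spread widely in Acadl KO / Acadvl wt hearts, where Trib3 ran from 18.1 to 124 CPM and Asns from 8.74 to 48.7 CPM. The Asns (1.38) and Mthfd2 (1.39) calls were lost without Acadl KO / Acadvl wt replicate 2 or without Acadvl KO replicate 1, 3 or 4, and the Asns call also without Acadl KO / Acadvl wt replicate 4. Adra1a was at 14.5 to 21.6 CPM in Acadl Het / Acadvl KO hearts, against 27.0 to 33.1 CPM in Acadl KO / Acadvl wt hearts, a call lost without the libraries above 10 CPM of Alb. Stbd1 and Lgals3 were higher with Acadvl KO by a log2 of 1.12 and 1.51, as was Chrm2 by 0.75, and all 3 calls were lost within batch 2. Aqp4 was at 0.292 to 0.735 CPM in Acadl Het / Acadvl KO hearts, against 0.260 to 0.782 CPM in Acadl KO / Acadvl wt hearts, and the difference did not pass (log2 0.04, SE 0.47, edgeR adjusted p = 0.9726).

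**Figure D5:**
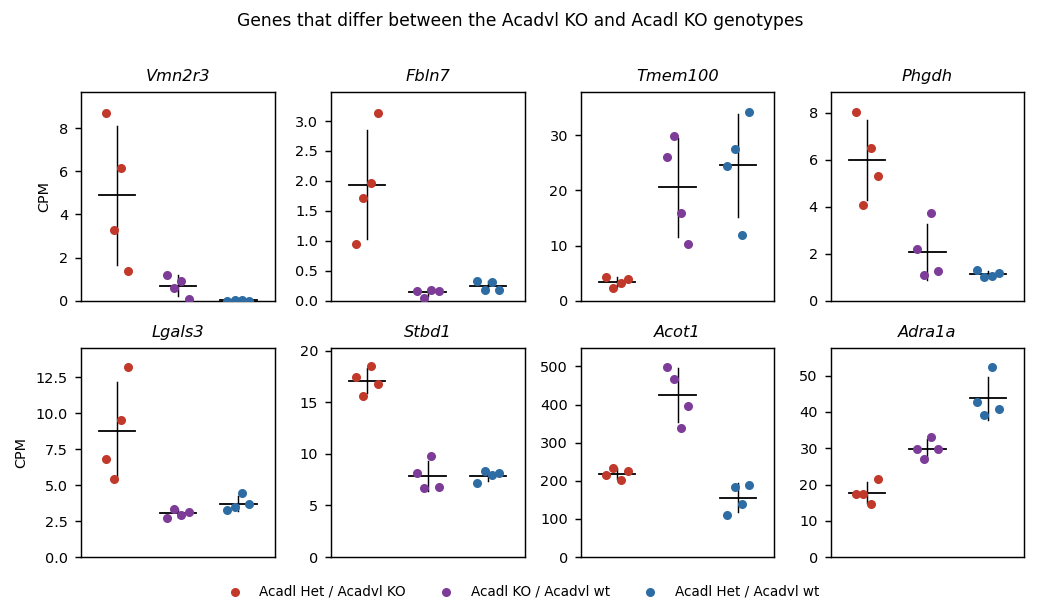
Levels in CPM (vertical axis, from 0) of 8 genes that differed between Acadl Het / Acadvl KO and Acadl KO / Acadvl wt hearts, with Acadl Het / Acadvl wt hearts at the right, 1 point per library (n = 4 each), the mean as a horizontal line and ± 1 SD as a vertical line. Fbln7, Phgdh, Lgals3 and Stbd1 are higher and Tmem100, Acot1 and Adra1a lower with Acadvl KO than with the label Acadl KO.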

How the data were processed

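The authors deposited raw read counts per gene symbol, 1 table per library, with 24421 genes. Reads over exons of UCSC mm10 genes were counted without strand by featureCounts 1.5.2, per the file headers, from primary alignments, and a read over several genes counts for each. Per the submitters' processing notes the tools were STAR 2.5.1b and featureCounts 1.5.3, and the build is named there both as GRCm38 and as mm10. The headers show 2 processing runs, which match the RNA isolation batches. Values of genes with close copies (the Acot and Slfn families) are uncertain. The tables list 0 mitochondrially encoded genes. Positions are those of the count tables (mm10, counted from 1), and promoter stretches are from RefSeq (GRCm38.p6, the same assembly under its other name).

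Counts of all 24 libraries entered 1 edgeR 4.0.16 quasi-likelihood fit (R 4.3.3, TMM factors, robust) that modelled genotype together with the batch of RNA isolation. A filter on low counts over the 6 genotypes left 15804 genes. P-values are two-sided and adjusted by the Benjamini-Hochberg method over those genes, with a threshold of 0.05, and standard errors come from the F statistic. Levels are CPM with TMM factors. Values printed for a library follow its number within the genotype, assigned by order of accession, which pairs nothing. Of the 65 gene lists, each is described by counts and medians. The members, lists and comparisons were chosen with earlier results of these data known. The rule for named genes takes Acadvl and Acadl, the 20 called genes per direction with the largest change that had a mean of at least 1 CPM, no overlap between groups and an established symbol, and up to 6 called members of each list. It takes 301 genes, of which the ones printed were chosen after their values were seen, as were 3 outside the rule. On simulated counts for the main comparison with 200 changed genes among 15804, the test recovered 43% of 1.5-fold and 72% of 2-fold changes and called 9 of 15443 unchanged genes. The simulated counts held no batch effect and no other difference between genotypes. They also held far fewer changed genes than the 3853 called in the hearts, so these rates need not hold for the real counts. Pairs of libraries of 1 genotype differed by at least 21.6 in chi-square per degree of freedom for Acadvl KO and Acadvl wt, so none was treated as a copy. Alternatives were other fits (DESeq2 1.42.0, limma 3.58.1 voom), other scalings and filters, each library left out, each batch alone, wild-type controls, and leaving out libraries above 10 CPM of Alb or the Rn45s counts. A result is not reported here.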

Additional observations from a re-analysis of the deposited data

Results flagged for a closer look

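A single library stood far from the other 3 of its genotype in 17 of 218 groups examined among the genes described, where chance alone gives about 1 in 20 groups, or 10.9. Among Acadvl KO libraries, replicate 2 stood high for Chac1 (172 CPM), Pycr1 (11.8 CPM), Srxn1 (362 CPM) and Acad12 (78.4 CPM). This is the library with the highest Alb of the 8 (36.8 CPM), and a part of that RNA in these values was not tested. Replicate 3 stood high for Psat1 (39.6 CPM) and Ptx3 (3.03 CPM), and replicate 1 for Pfkfb1 (13.9 CPM) and Kcnc1 (8.48 CPM). Replicate 4 stood low for Acot2 (426 CPM), and its 0.0253 CPM of Mir324 is a single read. Among Acadvl wt libraries, replicate 4 stood high for Cars (30.7 CPM) and Gnl3 (39.9 CPM) and low for Fabp3 (2546 CPM). Replicate 2 stood high for Mir324 (1.59 CPM), Hspa9 (833 CPM) and Chrm2 (61.1 CPM), and replicate 1 low for Cth (0.905 CPM).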

How the results depend on the processing

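In the comparison of Acadvl KO with Acadvl wt, 2031 genes were higher and 1822 lower. With only the 8 libraries fitted the counts were 1033 and 951, within batch 2 they were 1417 and 1214, and within batch 1 they were 158 and 50, where fewer samples entered. Other settings gave 1432 to 2187 higher and 1225 to 1753 lower genes when 1 library was left out, 2265 and 1959 with DESeq2, 1936 and 1879 with limma voom, and 2386 and 2081 against wild-type controls. Genes called in the main fit and in another setting had opposite signs in 0 cases in each setting. All settings reuse knockout libraries of the main fit, so this is not an independent check. Leaving 1 library out of the comparison with Acadvl Het gave 1133 to 2043 higher and 877 to 1504 lower genes, and only the libraries compared gave 604 and 560. No fit of that comparison without the libraries above 10 CPM of Alb was possible, since it leaves no Acadvl Het library. Against Acadl KO / Acadvl wt, leaving 1 library out gave 96 to 597 higher and 35 to 402 lower genes, only the libraries compared gave 28 and 18, batch 2 gave 29 and 25, no libraries above 10 CPM of Alb gave 47 and 30, and DESeq2 gave 713 and 512. Apart from fewer samples or a smaller fit, the cause was not tested. Of the 108 genes in the text called between Acadvl KO and Acadvl wt, 1 (Nppb) lost its call when some library was left out. Those genes were chosen after their values were seen and do not stand for all calls. Of all 3853 genes called, 70.6% to 88.7% kept their call when 1 library was left out. With only the 8 libraries fitted 50.3% kept it. Of the 109 genes in the text, 4 changed their call with only the 8 libraries fitted, 10 within batch 2 and 74 within batch 1. No paired analysis was possible because the labels give the genotypes no shared replicate numbers. Counts of fewer than about 10 reads per library, as for Fgf21 and Vmn2r3 in controls, limit how precise a fold can be.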

Other observations

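Chromosome 11 carries Acadvl, and its genes were counted by position, with a window of 10 Mb chosen after values were seen. Between Acadvl KO and Acadvl wt hearts, 87 of 324 tested genes within 10 Mb of Acadvl differed (26.9%), as did 276 of 981 on the rest of chromosome 11 (28.1%) and 24.1% of genes on other chromosomes. Between Acadl Het / Acadvl KO and Acadl KO / Acadvl wt hearts, 24 of those 324 genes differed (7.41%), 77 of 981 on the rest of chromosome 11 (7.85%) and 598 genes on other chromosomes (4.12%). On the first principal component of all 24 libraries, which held 35.8% of the variance, the Acadvl KO libraries lay at -36.1, -23.9, -0.27 and 5.24, and the Acadvl wt libraries at 41.0, 28.5, 36.0 and 26.6.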
